A study of Homo sapiens with 8 samples.

Results

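The 10 keratin genes described here were chosen by name, in 3 classes, from the 25369 gene symbols of the expression table and by their known roles, and the rule used no measured value, although earlier results of these data were known when the classes were set. The basal keratins were KRT5, KRT14, KRT15 and KRT17, the luminal or simple epithelial keratins were KRT7, KRT8 and KRT18, and the keratins of hyperproliferative or stressed epithelium were KRT6A, KRT6B and KRT16. All 10 passed the minimum set on low values (2 or more libraries with a normalized count of 10 or above), as did 13369 genes in all.

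The cells were MCF10A, a spontaneously immortalized, nontransformed line of mammary epithelial cells, so every library came from 1 line. They had been encapsulated for 7 days in 1 of 4 hydrogels, with 2 RNA-seq libraries each. The soft IPN was an interpenetrating network of alginate and reconstituted basement membrane (rBM), and the stiff IPN held the same components with calcium cross-linking of the alginate, so neither contained collagen-1. The soft col:rBM gel was a soft mixture of collagen-1 and rBM, and the stiff col gel was a stiff collagen-1 gel. The design compares stiff with soft gels without collagen-1 (stiff IPN against soft IPN) and in collagen gels (stiff col against soft col:rBM). It also compares collagen-1 gels with IPNs when both are stiff or both are soft. The IPNs differ in added calcium as well as stiffness, and the 2 cannot be told apart between them. A stiffness effect below means the stiff minus the soft gel of 1 kind, with whatever else differs between them. The stiff col and soft col:rBM gels differ in collagen-1 content as well as stiffness, and the 2 cannot be told apart between them. The same holds for any difference in their rBM content. Collagen-1 gels also lack the alginate of the IPNs and the added calcium of the stiff IPN, so collagen-1 is not the only difference there.

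Keratins build the intermediate filaments of epithelial cells. A filament forms only from pairs of a type I (acidic) and a type II (basic) keratin, and the usual partners are KRT5 with KRT14 in basal cells, KRT8 with KRT18 in luminal and simple epithelia, and KRT6 with KRT16 or KRT17 in wounded or hyperproliferative epidermis. In the mammary gland, KRT5, KRT14 and KRT17 mark the basal layer that touches the basement membrane, and KRT8, KRT18 and KRT7 mark the luminal layer.

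The values are normalized counts, meaning reads per gene scaled by 1 factor per library, which cannot be compared between genes without a correction for length. The factors were inferred from gaps in the values of each library, which gave an estimated 13065018 to 18588896 reads on genes. On that estimate 3 reads corresponded to 2.41 to 3.73 normalized counts, so every keratin described here lay far above the detection floor. The 10 genes together took 0.339% to 1.54% of a library, the most in stiff IPN replicate 2. The 9 epithelial markers checked were all measured, CDH1 (E-cadherin) at 1283 to 5620 and TP63, the transcription factor of basal epithelium, at 622 to 1865 normalized counts. PTPRC (immune cells), THY1 and COL1A2 (fibroblasts), CLDN5 (endothelium) and CNN1 (smooth muscle and myoepithelium) were at 0 in every library. Other members of those lists were measured, among them CD68 at 324 to 5017 and CD14 at 89 to 412 (immune), DCN at 526 to 1217 and COL1A1 at 168 to 333 (fibroblast), KDR at 22 to 267 (endothelial) and ACTA2 at 152 to 788 (myoepithelial). In bulk RNA, fewer cells with a keratin and less of its RNA per cell cannot be told apart.

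The type II genes and KRT18 lie within a single stretch of chromosome 12, from 52626304 to 53346690 (hg19, GENCODE annotation), in the order KRT7, KRT6B, KRT6A, KRT5, KRT8 and KRT18. The remaining type I genes lie on chromosome 17 between 39669997 and 39781094, in the order KRT15, KRT14, KRT16 and KRT17. The KRT8 and KRT18 annotations overlap at their ends on opposite strands, so that reads there cannot be assigned without strand. KRT86 overlaps the end of KRT7 on the same strand, where strand would not separate them.

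KRT6A, KRT6B and KRT6C are similar genes, and the sequence shows how far their reads can be separated. The coding part of exon 9 is 233 bases long in each of the 3, at chr12:52881507-52881739 for KRT6A, chr12:52840977-52841209 for KRT6B and chr12:52862849-52863081 for KRT6C, all on the minus strand of hg19. It is printed 5′ to 3′ on the coding strand, with capitals at the 10 positions where the 3 genes are not all the same.
KRT6A: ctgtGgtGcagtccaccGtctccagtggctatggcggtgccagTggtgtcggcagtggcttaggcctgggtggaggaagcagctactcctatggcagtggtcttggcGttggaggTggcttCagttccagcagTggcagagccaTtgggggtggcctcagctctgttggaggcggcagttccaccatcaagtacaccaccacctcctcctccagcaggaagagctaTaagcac
KRT6B: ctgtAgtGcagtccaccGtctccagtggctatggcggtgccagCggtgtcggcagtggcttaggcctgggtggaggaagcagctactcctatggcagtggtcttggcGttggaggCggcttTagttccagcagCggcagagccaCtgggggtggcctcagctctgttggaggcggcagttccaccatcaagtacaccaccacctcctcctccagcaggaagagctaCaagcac
KRT6C: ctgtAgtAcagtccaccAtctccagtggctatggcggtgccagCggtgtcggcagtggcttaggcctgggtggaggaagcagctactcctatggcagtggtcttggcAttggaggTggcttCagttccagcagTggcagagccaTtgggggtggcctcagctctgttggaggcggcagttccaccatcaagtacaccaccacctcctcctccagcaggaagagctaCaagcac
KRT6A and KRT6B differ at 7 of these bases, and 54 stretches of 50 bases, the read length, are the same in both. Over the whole canonical transcripts, 88.5% of aligned positions were identical between KRT6A and KRT6B, and 28.6% of the 50-base stretches of KRT6B recur in KRT6A. Counting every other place in the genome, 46.6% of the 50-base stretches of KRT6B and 39% of those of KRT6A have a second copy. Reads that mapped to more than one place were removed by the authors, so the counts of both genes rest on reads that had a single place. How paired reads in the shared stretches were placed was not tested.

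The type I keratins of chromosome 17 are less alike. The coding part of exon 6, 221 bases long, is shown for KRT14 (chr17:39739487-39739707), KRT16 (chr17:39766583-39766803) and KRT17 (chr17:39776911-39777131), again on the minus strand of hg19, since KRT16 and KRT17 differ in the results from their neighbour KRT14. Capitals mark the 27 positions at which the 3 are not all the same.
KRT14: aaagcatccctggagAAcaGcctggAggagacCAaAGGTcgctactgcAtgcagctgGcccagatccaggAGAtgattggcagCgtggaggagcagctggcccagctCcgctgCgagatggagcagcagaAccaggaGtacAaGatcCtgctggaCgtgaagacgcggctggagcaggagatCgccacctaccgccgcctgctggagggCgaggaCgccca
KRT16: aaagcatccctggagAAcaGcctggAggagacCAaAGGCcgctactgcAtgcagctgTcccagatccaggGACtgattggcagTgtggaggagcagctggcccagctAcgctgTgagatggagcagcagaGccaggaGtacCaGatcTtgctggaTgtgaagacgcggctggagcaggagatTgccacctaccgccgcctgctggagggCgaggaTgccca
KRT17: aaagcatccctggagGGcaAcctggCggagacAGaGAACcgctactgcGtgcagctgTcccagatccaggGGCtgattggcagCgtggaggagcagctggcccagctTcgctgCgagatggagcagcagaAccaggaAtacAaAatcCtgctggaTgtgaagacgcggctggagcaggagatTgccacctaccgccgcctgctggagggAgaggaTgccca
KRT14 and KRT17 differ at 21 of these bases and KRT14 and KRT16 at 14. Of the 50-base stretches, 23.7% of KRT14, 20.8% of KRT16 and 14.4% of KRT17 have a copy elsewhere in the genome. The share was larger for the luminal genes with many processed copies, at 47.1% for KRT8 and 39.1% for KRT18, and it was 0% for KRT15, 1.14% for KRT7 and 4.52% for KRT5. Counts of KRT8 and KRT18 may therefore leave out more of their transcript than those of KRT15, KRT7 and KRT5.

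Among the basal keratins, KRT5, the type II keratin of basal cells, had 19940 and 44022 normalized counts for the soft IPN (replicates 1 and 2, in this order throughout) and 15259 and 38963 in the stiff IPN. It had 14504 and 32735 in soft col:rBM gels and 7417 and 24369 in stiff col gels. Replicate 2 was the higher library in each of the 4 gels, and the gels overlapped. KRT14, the partner of KRT5, had 2003 and 7964 in the soft IPN, 3555 and 7848 in the stiff IPN, 1488 and 7616 in soft col:rBM gels and 839 and 4034 in stiff col gels. Like KRT5 it was higher in replicate 2 of each gel and lowest in stiff col replicate 1, but its mean was higher in the stiff than in the soft IPN, where that of KRT5 was lower.

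KRT15, a type I keratin of basal and progenitor cells, had 3053 and 6839 normalized counts for the soft IPN, 3864 and 3386 in the stiff IPN, 2403 and 6610 in soft col:rBM gels and 717 and 2834 in stiff col gels. The stiff IPN was the only gel in which its replicate 2 was not the higher. KRT17, a type I keratin of basal cells that is also induced in wounds, had 5552 and 18767 in the soft IPN and 19555 and 71907 in the stiff IPN. In soft col:rBM gels it had 2883 and 7944, and in stiff col gels 3049 and 13097. Both stiff IPN libraries lay above all 6 others, by a small margin over soft IPN replicate 2 for replicate 1.

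Among the luminal keratins, KRT7, a type II keratin of simple and ductal epithelia, had 26814 and 17078 normalized counts for the soft IPN, 33847 and 35713 in the stiff IPN, 28462 and 13141 in soft col:rBM gels and 22544 and 14350 in stiff col gels. The stiff IPNs again held the 2 highest libraries, and replicate 2 was the lower library in the other 3 gels. KRT8, the main type II keratin of simple epithelia, had 5366 and 4835 in the soft IPN, 3023 and 5488 in the stiff IPN, 6132 and 3286 in soft col:rBM gels and 5061 and 3153 in stiff col gels. Its partner KRT18 had 7326 and 5720, 5148 and 5509, 7048 and 4423, and 5530 and 4014 in the same order of gels. These were the steadiest of the 10, with a highest over lowest library of 2.03-fold for KRT8 and 1.83-fold for KRT18.

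Among the hyperproliferative keratins, KRT6A, the more abundant KRT6 gene, had 21219 and 36231 normalized counts for the soft IPN, 19961 and 45308 in the stiff IPN, 19674 and 35808 in soft col:rBM gels and 13343 and 28048 in stiff col gels. KRT6B had 51 and 307 in the soft IPN, 616 and 3456 in the stiff IPN, 60 and 318 in soft col:rBM gels and 52 and 391 in stiff col gels. The other 3 gels were alike within each replicate, and both stiff IPN libraries lay above all of them. KRT16, a type I partner of KRT6, had 911 and 492 in the soft IPN, 1128 and 2502 in the stiff IPN, 676 and 354 in soft col:rBM gels and 197 and 382 in stiff col gels. Its stiff IPN libraries were likewise the 2 highest of the 8.

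**Figure D1:**
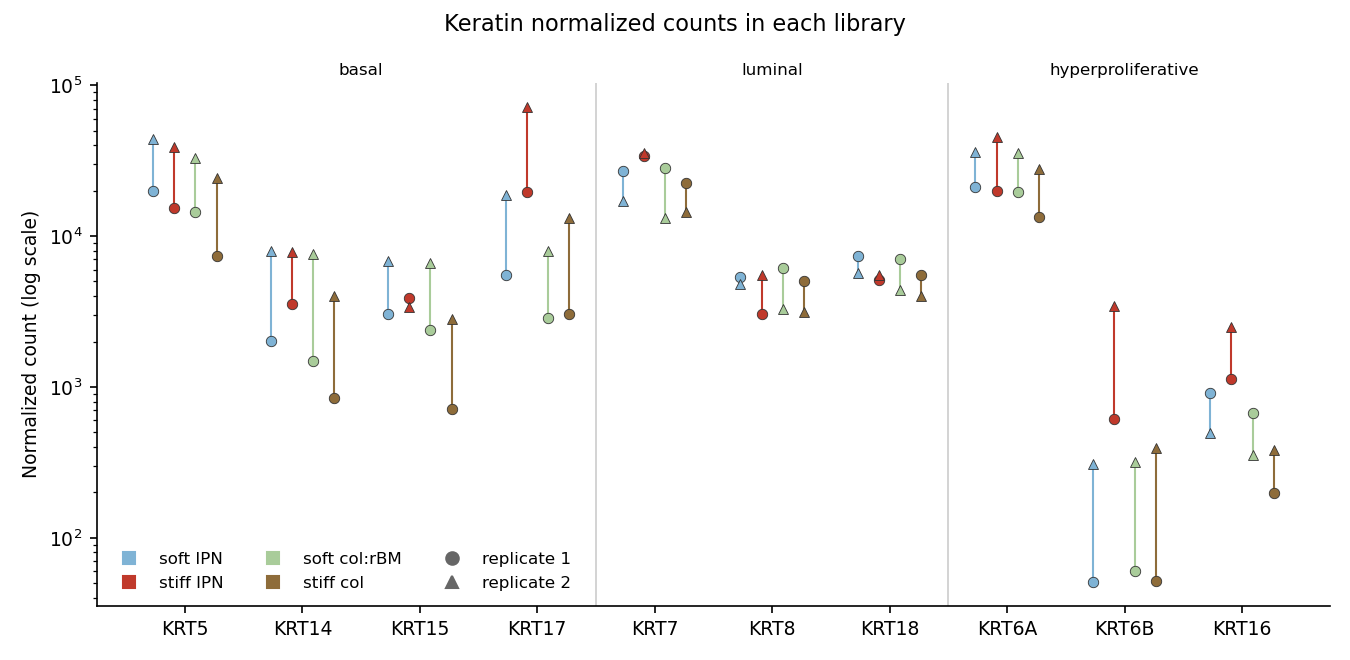
Normalized count (log scale) of each of the 10 keratins in the 8 libraries, with 1 colour per gel, circles for replicate 1, triangles for replicate 2 and a line joining the 2 libraries of a gel. In the stiff IPN both libraries of KRT17, KRT7, KRT6B and KRT16 lie above those of the 3 other gels, while KRT5, KRT14 and KRT6A are separated more by replicate than by gel.

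The spread over the 8 libraries differed between the 10 genes. The SD of log2(normalized count + 1) was 2.10 for KRT6B, 1.56 for KRT17, 1.22 for KRT14 and 1.14 for KRT16. It was 0.41 for KRT8 and 0.30 for KRT18, against a median of 0.33 over all genes tested. In this measure KRT6B was at percentile 99.8 of all genes, KRT17 at percentile 99.1 and KRT18 at percentile 44.3.

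In the comparison of stiff with soft IPNs, KRT6B was 11.5-fold higher and KRT17 3.67-fold higher in the stiff IPN, and the other 8 keratins did not pass the test. Differences were tested on log2(normalized count + 1) with limma over all 13369 genes and Benjamini-Hochberg adjustment. The fit was made once with 1 mean per gel and once with the replicate number added as a block. The block was added since the same-numbered libraries deviated together, though least so in the stiff IPN. Without the block, no gene passed an adjusted p of 0.05 (0% of 13369 genes, with 1245 genes and 2 of the 10 keratins at an unadjusted p under 0.05). With the replicate block, 2 of the 10 keratins passed, against 3.82% of all genes tested (226 higher and 285 lower). Where 1 library is left out below, its gel keeps 1 library, and the spread then comes from the other gels.

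KRT6B rose by 3.57 on the log2 scale in the replicate 1 pair and by 3.49 in the replicate 2 pair. Its mean log2 fold change was 3.53 (limma SE 0.19 with the block, 95% interval 3.09 to 3.97), with an adjusted p of 0.000932 with the block and 0.515 without it. By p with the block, it ranked number 1 of the 13369 genes. KRT17 rose by 1.82 and 1.94 in the replicate pairs, a mean of 1.88 (SE 0.18, interval 1.47 to 2.28, limma adjusted p 0.00669 with the block and 0.569 without). The 2 pairs thus gave nearly the same difference for both genes, although the libraries themselves differed by several fold between replicates.

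KRT16 and KRT7 were higher in both pairs but did not pass. For KRT16 the differences were 0.31 and 2.34 (mean 1.33, SE 0.51 and limma adjusted p 0.161 with the block), and for KRT7 they were 0.34 and 1.06 (mean 0.70, SE 0.25, limma adjusted p 0.144 with the block). KRT6A had a mean log2 difference of 0.12 with an interval of -0.25 to 0.49, and KRT5 one of -0.28 with an interval of -0.69 to 0.13. KRT14 had 0.40 (interval -0.22 to 1.03), KRT15 -0.34 (-1.30 to 0.63), KRT8 -0.32 (-1.16 to 0.51) and KRT18 -0.28 (-0.72 to 0.16). The replicate 1 and 2 pairs were at 0.83 and -0.02 for KRT14. They were at 0.34 and -1.01 for KRT15 and at -0.83 and 0.18 for KRT8, so each of these was lower in 1 pair. The 2 libraries of each gel did not overlap for 5 keratins (KRT17, KRT7, KRT18, KRT6B and KRT16), as for 41.9% of all genes tested.

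The call of KRT6B and KRT17 in this comparison was lost without soft IPN replicate 2, where no keratin and 0% of all genes passed with the block (limma adjusted p 0.185 for KRT6B and 0.233 for KRT17), and it held without each of the 7 other libraries. Without stiff IPN replicate 2, the library with the most keratin RNA, 4 keratins passed (KRT6B, KRT17, KRT14 and KRT8), against 8.06% of all genes in that fit. Without stiff IPN replicate 1, 5 did (KRT6B, KRT17, KRT7, KRT15 and KRT16), against 20.1% of all genes, so the calls grew in number over all genes as well.

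In the comparison of the 2 stiff gels, all 10 keratins had a lower mean in stiff col gels than in the stiff IPN, with a median log2 difference of -1.15 against 0.00 over all genes tested. The stiff IPN libraries are shared with the comparison above, so these are not separate evidence for them. Without the block 0% of all genes passed (838 genes and 3 keratins at an unadjusted p under 0.05), and with it 4 of the 10 keratins passed, all lower, against 2.47% of all genes (134 higher and 196 lower).

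KRT6B was 10.1-fold lower in stiff col gels (log2 differences of -3.54 and -3.14 in the replicate pairs, mean -3.34, SE 0.19, limma adjusted p 0.00144 with the block and 0.774 without). KRT17 was 5.93-fold lower (differences -2.68 and -2.46, mean -2.57, SE 0.18, limma adjusted p 0.00302 with the block and 0.707 without). By p with the block these ranked numbers 1 and 2 of the 13369 genes. KRT16 was 6.10-fold lower (-2.51 and -2.71, mean -2.61, SE 0.51, limma adjusted p 0.0428 with the block and 0.33 without), and KRT14 was 2.87-fold lower (-2.08 and -0.96, mean -1.52, SE 0.27, limma adjusted p 0.0328 with the block and 0.855 without).

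The other 6 keratins did not pass in this comparison. KRT5 was just outside, with a mean of -0.86 (interval -1.27 to -0.45) and a limma adjusted p of 0.0522 with the block. KRT6A had -0.64 (interval -1.01 to -0.27, adjusted p 0.0886 with the block), KRT7 -0.95 (-1.53 to -0.37, 0.0981) and KRT15 -1.34 (-2.31 to -0.38, 0.143), by the same limma fit. KRT8 had -0.03 (interval -0.86 to 0.81) and KRT18 -0.18 (-0.62 to 0.27). The libraries did not overlap for 5 keratins (KRT15, KRT17, KRT7, KRT6B and KRT16), as for 30.9% of all genes.

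The calls of KRT6B and KRT17 here held without each library in turn and under each other setting tried with the block. Those of KRT14 and KRT16 did not: KRT16 kept its call without 1 of the 8 libraries (stiff IPN replicate 1, highest limma adjusted p with the block 0.519 over the 8) and KRT14 without 4 of them (highest 0.269). Without stiff IPN replicate 2, KRT6B, KRT17, KRT14 and KRT15 passed, against 5.25% of all genes, and without stiff IPN replicate 1, 7 keratins did, against 16.5%. Without either soft IPN library or either stiff col library, KRT6B and KRT17 were the keratins that passed (0.271% to 0.825% of all genes), and without either soft col:rBM library KRT14 passed with them (2.16% and 2.17%).

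**Figure D2:**
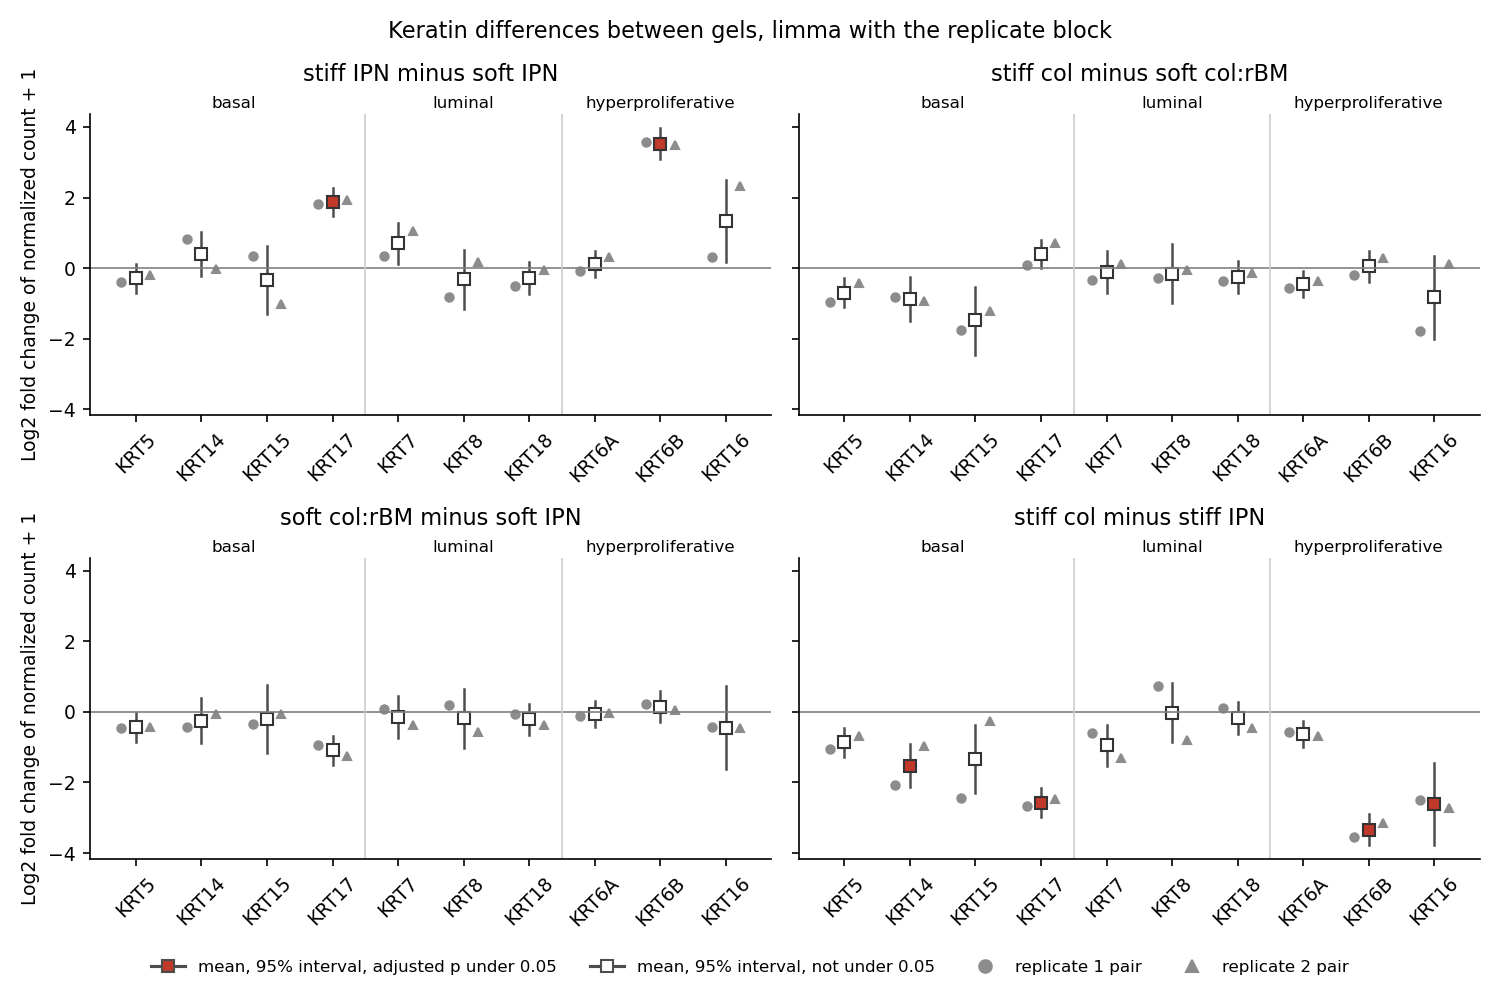
Log2 fold change of normalized count + 1 for each keratin in 4 comparisons of gels. Squares are means with 95% intervals from limma with the replicate block (filled where the adjusted p is under 0.05), and the circles and triangles beside them are the differences of the replicate 1 and replicate 2 pairs. KRT6B and KRT17 are filled in both comparisons that hold the stiff IPN.

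In collagen gels, no keratin passed between stiff col and soft col:rBM gels, with or without the block (0% of all genes in both, limma). At an unadjusted p under 0.05 there were 140 genes and 0 keratins without the block, and 497 genes and 4 keratins with it. The direction in the means was lower for 8 of the 10. The basal keratins KRT15 (-1.48, interval with the block -2.45 to -0.52), KRT14 (-0.87, -1.49 to -0.25) and KRT5 (-0.70, -1.11 to -0.28) were lower in both pairs, and so was KRT6A (-0.46, -0.83 to -0.09). KRT17 had 0.40 (interval -0.01 to 0.81) and KRT6B 0.05 (-0.39 to 0.49). For KRT16 the pairs were on opposite sides of 0, at -1.77 and 0.11. KRT7, KRT8 and KRT18 had -0.10, -0.17 and -0.24. No keratin had non-overlapping libraries here, while 19% of all genes did. With the block, KRT14 and KRT15 passed without either stiff IPN library (0.218% and 0.227% of all genes), and KRT5, KRT14, KRT15 and KRT6A passed when these 4 libraries were fitted alone (7.47%).

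Between the 2 soft gels no keratin passed, and KRT17 differed most. None was called between soft col:rBM gels and soft IPNs (0% of all genes without the block and 0.0224% with it, limma, with 190 and 636 genes and 0 and 2 keratins at an unadjusted p under 0.05). KRT17 had the largest difference, lower in soft col:rBM gels by 0.95 and 1.24 on the log2 scale in the pairs (mean -1.09, interval -1.5 to -0.69, limma adjusted p 0.215 with the block). KRT5 had -0.44 (interval -0.86 to -0.03) and KRT14, KRT15, KRT7, KRT8, KRT18, KRT6A, KRT6B and KRT16 lay between -0.45 and 0.14, among them KRT6B at 0.14 (-0.30 to 0.58). No keratin had non-overlapping libraries, against 20.7% of all genes. KRT17 passed when these 4 libraries were fitted alone with the block (0.326% of all genes).

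The difference of the 2 stiffness effects, that in collagen gels minus that in IPNs, was tested directly as a contrast of all 4 gels. KRT6B was 1 of 2 genes that passed with the block (0.015% of all genes, with 1321 genes and 5 keratins at an unadjusted p under 0.05). None passed without it, where 278 genes and 1 keratin had an unadjusted p under 0.05. Its stiffness effect was smaller in collagen gels by 3.48 on the log2 scale (differences -3.77 and -3.19 in the replicates, SE 0.27, interval -4.11 to -2.86, limma adjusted p 0.0106 with the block and 1 without). The call was lost without either soft IPN library (highest adjusted p 0.397, limma with the block) and when trend and robust moderation were both left out. Without stiff IPN replicate 1, KRT16, KRT17 and KRT7 passed beside it (4.95% of all genes), and without stiff IPN replicate 2, KRT14 and KRT15 did (0.31%). KRT16 had -2.16 (interval -3.81 to -0.51, limma adjusted p 0.392 with the block) and KRT17 -1.48 (-2.05 to -0.90, 0.147). KRT14 had -1.27 (-2.16 to -0.39), KRT15 -1.15 (-2.51 to 0.22), KRT7 -0.80 (-1.63 to 0.02), KRT6A -0.57 (-1.10 to -0.05) and KRT5 -0.42 (-1.0 to 0.17), none of them past the threshold. KRT8 and KRT18 had 0.15 (-1.03 to 1.33) and 0.04 (-0.59 to 0.66).

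Over all 4 gels at once, a limma F test with the block called KRT6B (adjusted p 0.00117) and KRT17 (adjusted p 0.00302), 2 of the 10 against 1.58% of all genes, and not KRT5, KRT14, KRT15, KRT7, KRT8, KRT18, KRT6A or KRT16. Without the block it called 0% of all genes (702 genes and 1 keratin at an unadjusted p under 0.05).

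Pairs of keratins, among them those that usually polymerize together, were compared within each library, where the scaling of the library cancels. The log2 ratio of KRT8 to KRT18 counts stayed between -0.77 and -0.01, and that of KRT5 to KRT14 between 2.10 and 3.31, with the stiff IPNs at 2.10 and 2.31. In replicate 1 the KRT5 to KRT14 ratio was lower in the stiff IPN (2.10) than in the other gels (3.14 to 3.31), and in replicate 2 it was 2.31 against 2.10 to 2.59. KRT17 was higher relative to KRT5, and to KRT14, which is a type I keratin like it, in the stiff IPN. Its log2 ratio to KRT5 was 0.36 and 0.88 in the stiff IPN and -2.33 to -0.90 in the other 6 libraries. Its log2 ratio to KRT14 was 2.46 and 3.2 in the stiff IPN and at most 1.86 elsewhere.

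The KRT6 genes separated in the same libraries. The log2 ratio of KRT6B to KRT6A was -5.02 and -3.71 in the stiff IPN, -8.67 and -6.88 in the soft IPN, -8.33 and -6.81 in soft col:rBM gels and -7.98 and -6.16 in stiff col gels. KRT6C, counted at 47 to 100 normalized counts, had a log2 ratio to KRT6A between -8.93 and -8.09, lowest in the stiff IPNs at -8.70 and -8.93. So among these 3 similar genes, KRT6B was the one whose share was larger in the stiff IPN. The log2 ratio of KRT6A to KRT16 was 4.14 and 4.18 in the stiff IPN and 4.54 to 6.66 elsewhere, and that of KRT7 to KRT18 was 2.72 and 2.70 in the stiff IPN and at most 2.03 elsewhere. These ratios are given as descriptions, with no test.

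**Figure D3:**
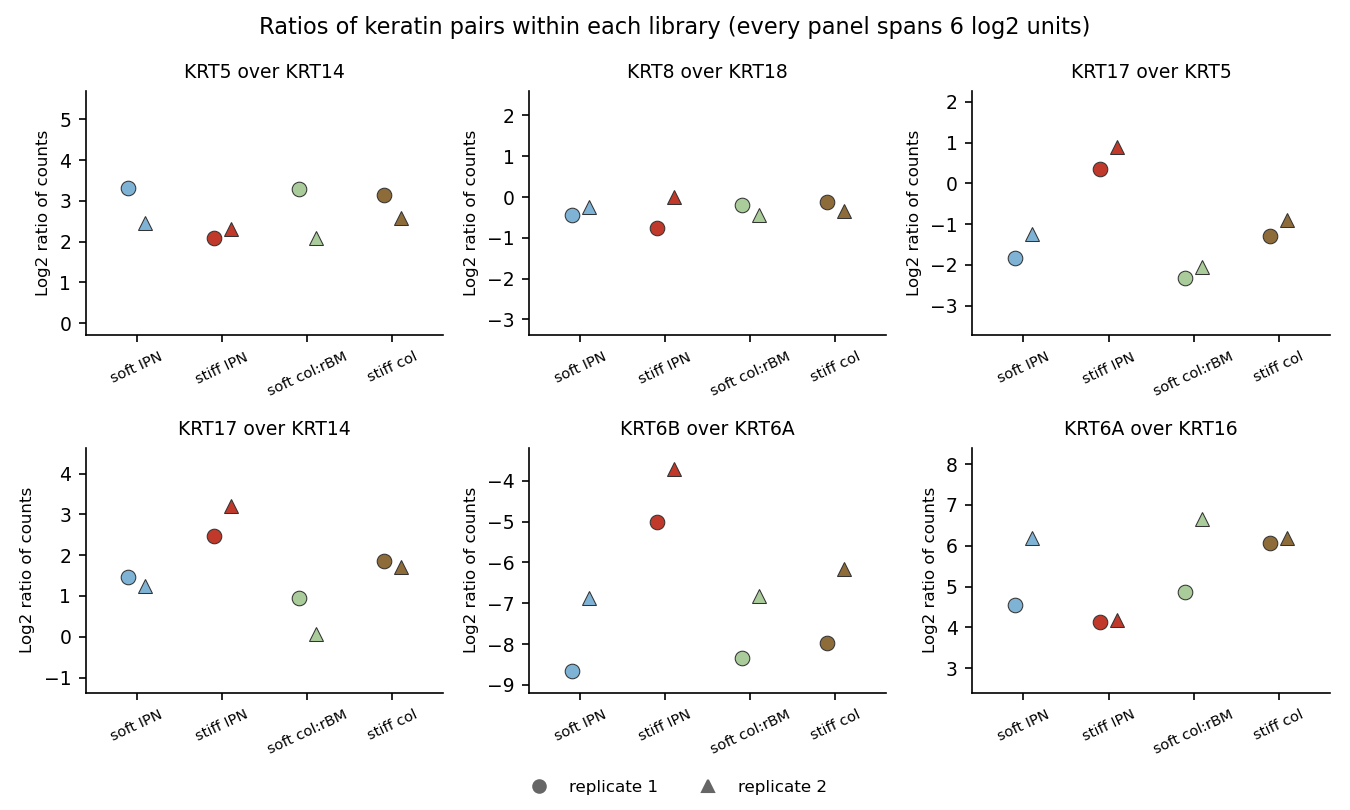
Log2 ratio of normalized counts of 6 keratin pairs within each library, by gel, with circles for replicate 1 and triangles for replicate 2 and the same span of 6 log2 units in each panel. KRT5 over KRT14 and KRT8 over KRT18 vary by at most 1.21 units, while KRT17 over KRT5, KRT17 over KRT14 and KRT6B over KRT6A are highest and KRT6A over KRT16 lowest in both stiff IPN libraries.

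The replicates differed in most of the 10 keratins. In replicate 2 against replicate 1, with gel as a term, 7 of the 10 keratins passed (limma, Benjamini-Hochberg), against 27.1% of all genes (1693 higher and 1926 lower in replicate 2). All 4 basal keratins were higher in replicate 2, KRT14 by 3.83-fold (log2 1.94, SE 0.19), KRT17 by 3.48-fold (1.80, SE 0.13), KRT5 by 2.54-fold (1.35, SE 0.13) and KRT15 by 2.15-fold (1.10, SE 0.30). KRT6B was 5.99-fold higher (2.58, SE 0.14, limma adjusted p 0.000237) and KRT6A 1.96-fold higher (0.97, SE 0.11). KRT7 was 1.5-fold lower (log2 -0.58, SE 0.18, limma adjusted p 0.0445). KRT15 and KRT7 went the other way in the stiff IPN, where KRT15 was lower and KRT7 slightly higher in replicate 2.

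Of the remaining keratins, KRT18 had -0.35 (interval -0.66 to -0.03, limma adjusted p 0.0914), KRT8 -0.22 (-0.81 to 0.37) and KRT16 0.07 (-0.75 to 0.90). KRT16 was lower in replicate 2 of both soft gels and higher in replicate 2 of both stiff gels. KRT14, KRT5 and KRT6A had every replicate 2 library above every replicate 1 library, as 19.8% of all genes had no overlap. An exact sign-flip test over the 4 gels cannot go below a two-sided p of 0.125, which KRT5, KRT14, KRT17, KRT6A and KRT6B reached, each higher in 4 of 4 gels (adjusted p 0.25 over the 10).

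With the replicates fitted this way, KRT15 and KRT7 lost their call when trend and robust moderation were both left out (5 keratins and 19.9% of all genes called, limma), and KRT7 also on rescaling to a common total (6 keratins and 27.3% of all genes). Both also lost it without either library of the soft IPN, soft col:rBM or stiff col gels, against 9.08% to 12.3% of all genes called, and KRT8 and KRT18 gained one without either stiff IPN library, against 44% of all genes. In the same contrast, 15 of 15 proliferation genes tested had a higher mean in replicate 2, of which 6 passed, against 27.1% of all genes called in that contrast. Their median log2 difference was 0.32, against -0.01 over all genes, of which 49.4% were higher in replicate 2. PCNA, the replication clamp, had 692, 1296, 723 and 709 normalized counts in replicate 1 and 1612, 1668, 1979 and 2162 in replicate 2, in the gel order used above. Their part in the keratin difference was not tested. None of the 15 passed between gels in either fit. Of the 15, 11 had a lower and 4 a higher mean in the stiff than in the soft IPN (median log2 difference -0.25, against -0.01 over all genes). In stiff col gels against the stiff IPN, 11 were higher and 4 lower (median 0.17).

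**Figure D4:**
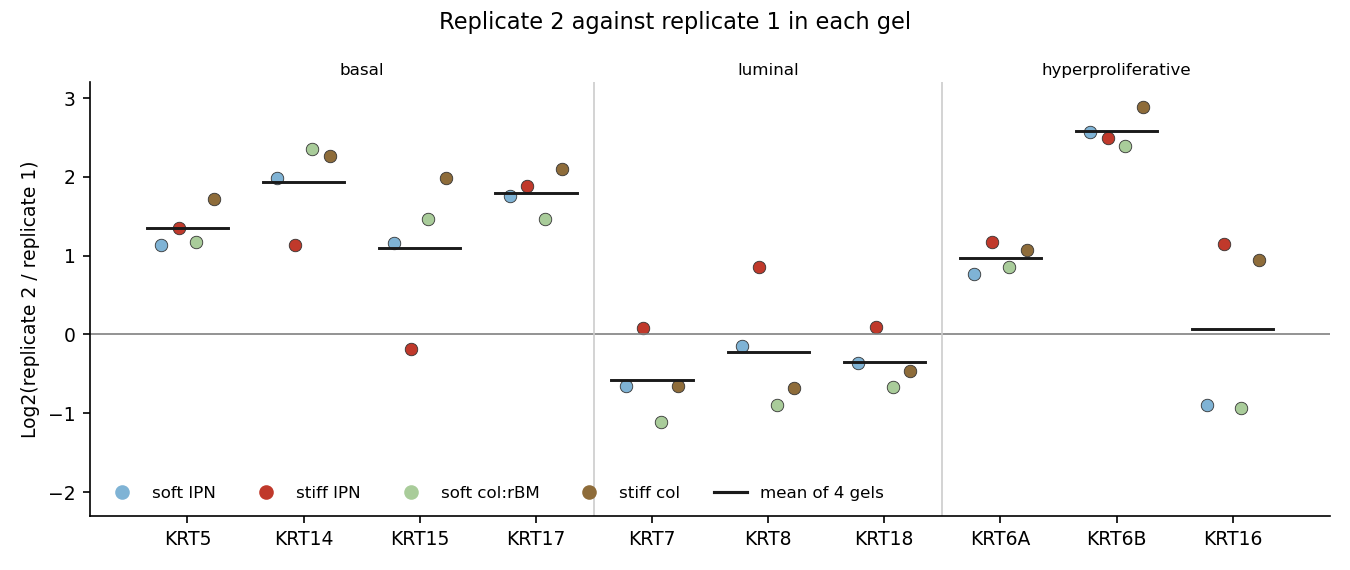
Log2 ratio of replicate 2 to replicate 1 for each keratin, with 1 point per gel and a bar at the mean of the 4 gels. The basal keratins, KRT6A and KRT6B lie above 0 in all gels but for KRT15 in the stiff IPN, and KRT7, KRT8 and KRT18 lie at or below 0 outside the stiff IPN.

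To compare levels between genes, normalized counts were divided by the combined length of the annotated exons in kilobases. By the median over 8 libraries, the order was KRT6A (8419 per kb), KRT7 (6171), KRT5 (5360), KRT17 (3512), KRT18 (1798), KRT14 (1683), KRT8 (719.1), KRT15 (539.4), KRT16 (235.8) and KRT6B (135.8). No neighbours in that order kept the same order in all 8 libraries: KRT15 exceeded KRT16 in 7 of them, and KRT6A exceeded KRT7 in 5. By the mean of the 2 libraries, KRT17 came first in the stiff IPN (15264 per kb), ahead of KRT6A (11153), and KRT6A was first in the other 3 gels. Single libraries did not all keep this order. In stiff IPN replicate 1, KRT7 and KRT6A were both above KRT17, and in replicate 1 of both collagen gels KRT7 was above KRT6A.

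The order depends in part on which length is used. No length was corrected for the 50-base stretches with a second copy in the genome, 39% for KRT6A and 1.14% for KRT7. The combined exons of KRT7 span 3999 bases and its canonical transcript 1625, and those of KRT8 6881 and 1784, and these were the 2 genes that moved up with the canonical transcript, past KRT6A and KRT14. Per length of the canonical transcript KRT7 came first (15187 per kb), then KRT6A (10673), KRT5 (9899), KRT17 (6935), KRT18 (3906), KRT8 (2774), KRT14 (2319), KRT15 (1881), KRT16 (352.2) and KRT6B (135.8). On this scale, KRT18 exceeded KRT8, KRT15 exceeded KRT16 and KRT16 exceeded KRT6B in all 8 libraries.

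On the same scale the basal class held 19.1% to 58.1% of the counts per length of the 10 keratins, and the luminal class 22.8% to 62.9%. In replicate 1 the basal share was 31.1% in the soft IPN, 40.3% in the stiff IPN, 23.5% in soft col:rBM gels and 19.1% in stiff col gels. In replicate 2 it was 55.1%, 58.1%, 49.5% and 47.6%. The stiff IPN had the largest and the stiff col gel the smallest basal share in both replicates, and every replicate 2 library exceeded every replicate 1 library. KRT17 by itself took 21.5% and 38.5% of the 10 in the stiff IPN and 4.17% to 17.4% in the other gels. KRT5, KRT14 and KRT15 together held less in the stiff IPN (18.8% and 19.6%) than in the soft IPN (23.8% and 38.4%). They held 19.3% and 40.4% in soft col:rBM gels and 12.9% and 30.2% in stiff col gels. In replicate 1 the stiff IPN was thus above the stiff col gel. With KRT17 left out of the total as well, they held 23.9% and 31.9% of the other 9 keratins in the stiff IPN and 25.7% and 46.1% in the soft IPN. In soft col:rBM gels they held 20.1% and 44.4%, and in stiff col gels 13.8% and 36.6%. The stiff IPN was above both collagen gels in replicate 1 and below both in replicate 2. The rank of the stiff IPN by basal share therefore rests on KRT17.

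**Figure D5:**
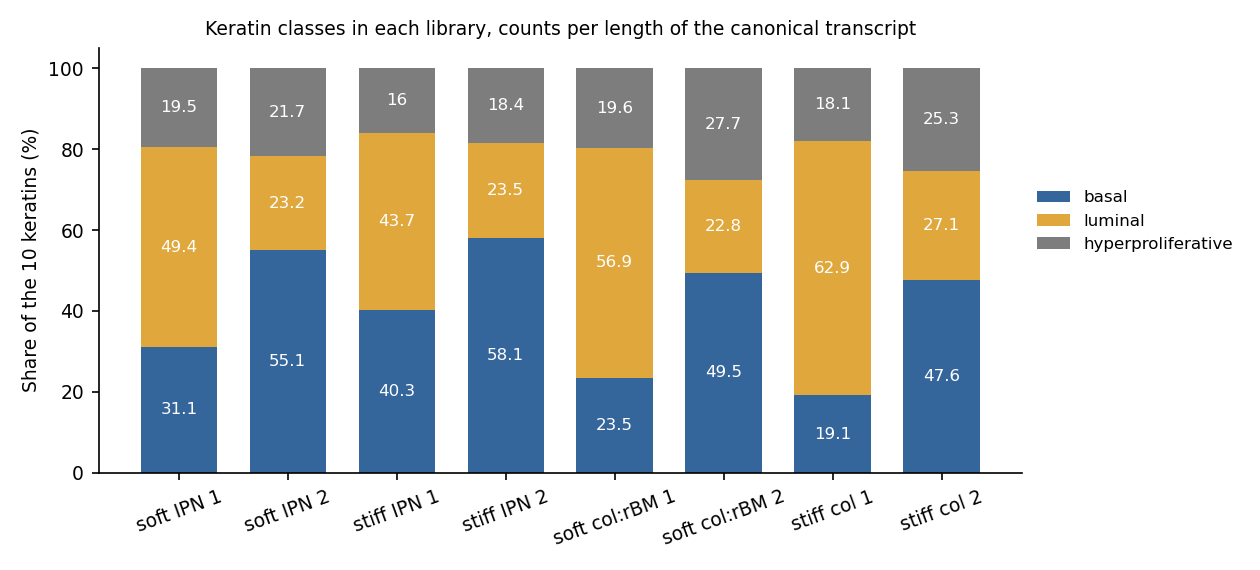
Share (%) of the basal, luminal and hyperproliferative classes in the summed counts per length of the canonical transcript of the 10 keratins, with 1 bar per library. The basal share is larger in replicate 2 than in replicate 1 in all 4 gels and is largest in stiff IPN replicate 2, at 58.1%.

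Across the 8 libraries, which share 4 gels and 2 replicate numbers, the log2 values of KRT17 and KRT6B had a Pearson r of 0.95, and 0.92 after the replicate means were subtracted. KRT5 and KRT6A had 0.97 and 0.89, KRT5 and KRT14 0.94 and 0.79, and KRT8 and KRT18 0.83 and 0.87. KRT7 and KRT17 had 0.21 over all libraries and 0.86 with the replicate means subtracted. These are descriptions of 8 libraries, with no test.

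The genes most like each keratin were found by Pearson r of log2 values over the 8 libraries among 9961 genes with a mean of at least 100. Those most like KRT6B were VSIG10 (r 0.995, 72 to 396 normalized counts) and ARHGEF37 (0.989), and those most like KRT17 were HERC6 (0.988) and SLC25A4 (0.988). For KRT16 they were IRF5 (0.986) and PERP, a p63 target of desmosomes (0.976), and for KRT7 CLDN4, a tight junction claudin, was among them (0.982). KRT18 was most like C19orf33 (0.995) and the cell cycle inhibitor CDKN1C (0.989), and KRT8 most like EFNA4 (0.965) and ARL2 (0.957). For KRT5 they were MAD2L1BP (0.992) and PARL (0.987), for KRT14 NOP9 (0.993) and ALDH1B1 (0.989), for KRT15 CMTM7 (0.981) and LINC00673 (0.969), and for KRT6A PSMC5 (0.988) and B3GALT6 (0.983). Each of these is the highest or second highest of 9961 values over 8 libraries, and they carry no test.

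Of 44 other keratins in the table, 18 were at 0 in every library and 8 passed the minimum. KRT81, a type II hair keratin, had the highest median level per length over the 8 libraries among the keratins that passed the minimum (31192 per kb). In its highest library KRT81 had 40344 per kb, below the highest of KRT17 per canonical transcript (47401). It had 49665 and 28641 normalized counts for the soft IPN, 73181 and 77021 in the stiff IPN, 77824 and 29151 in soft col:rBM gels and 70673 and 25419 in stiff col gels. KRT81 lies within the annotation of KRT86, so the 2 cannot be fully separated without strand. KRT19, a luminal keratin, had 1 to 6 normalized counts, and KRT13, of stratified mucosa, had 0 to 3. Reads with several mapping places had been removed, and the part of this in the KRT19 value was not tested. Of the 8, KRT23 had 31 and 13 in the stiff IPN and 1 to 7 elsewhere, and KRT34 had 22 and 173 against 0 to 11. Both passed the minimum only through the stiff IPN, so their tests are not used. Of the others, 1 passed between gels, against 2.47% of all genes in that comparison. KRT80 was lower in stiff col gels (11 and 21) than in the stiff IPN (42 and 128), by 2.20 on the log2 scale (limma adjusted p 0.0472 with the block and 0.49 without). KRT10, the suprabasal type I keratin, had 563 and 1027 in the soft IPN and 688 and 1551 in the stiff IPN and did not pass (limma adjusted p 0.232 with the block).

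The suprabasal differentiation genes were followed because KRT6 and KRT16 lie with them in stressed epidermis. Of 10 listed, 6 passed the minimum. Between stiff and soft IPNs 2 of the 6 rose with the block, against 3.82% of all genes called in either direction. IVL (involucrin, a cornified envelope precursor) had 42 and 126 normalized counts for the soft IPN and 190 and 401 in the stiff IPN (limma adjusted p 0.0317 with the block, 0.546 without). SPRR1A, a small proline-rich envelope protein, had 23 and 65 against 242 and 397 (limma adjusted p 0.0282 with the block, 0.493 without). Between stiff col gels and stiff IPNs, SPRR3, at 28 and 55 in the stiff IPN and 0 to 2 in all collagen gels, passed the minimum only through the IPNs, so its test is not used. Of the 5 others, 3 were lower with the block (IVL, SPRR1A and SPRR1B), against 2.47% of all genes. SPRR1B had 1671 and 1923 in the stiff IPN and 34 and 405 in stiff col gels.

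Of 13 regulators of keratin genes that passed the minimum, POU2F3, a POU factor of suprabasal keratinocytes, did so only through the stiff IPN, where it had 18 and 41 normalized counts, against 0 to 2 in the other 6 libraries. Its values are a description, and its test is not used. Of the 12 others, 2 were lower in stiff col gels than in the stiff IPN with the block, against 2.47% of all genes. ELF3, an epithelial ETS factor, had 544 and 712 in the stiff IPN and 71 and 22 in stiff col gels (adjusted p 0.0213), and GRHL3, a grainyhead factor of epidermal differentiation, had 176 and 231 against 21 and 68 (adjusted p 0.0153, both limma with the block). TP63 did not pass between gels.

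Of the 12 genes that link keratin filaments to desmosomes, hemidesmosomes or each other, none passed between the IPNs, and 4 were lower in stiff col gels than in the stiff IPN with the block (DST, PPL, EPPK1 and JUP), against 2.47% of all genes. DST (dystonin, which holds keratins at hemidesmosomes) had 7671 and 9894 normalized counts in stiff IPN libraries and 3301 and 5079 in stiff col gels (limma adjusted p 0.0165 with the block, 0.58 without). EPPK1 (epiplakin, a keratin-binding plakin) had 127 and 600 against 8 and 69 (limma adjusted p 0.014 with the block, 0.602 without). Of 6 intermediate filament genes that are not keratins, VIM (vimentin, of mesenchymal cells and cultured epithelium) passed between the IPNs with the block, against 3.82% of all genes. It had 61638 and 30868 in the soft IPN and 22798 and 9804 in the stiff IPN, lower by 1.54 on the log2 scale (limma adjusted p 0.0131 with the block, 0.543 without), and 46195 and 18460 in stiff col gels.

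Markers of other cell types were read beside these differences. The summed normalized counts of 6 myoepithelial markers were 514 and 2930 in the stiff IPN and 395 to 824 in the other gels, of which TAGLN reached 2728 in 1 library while CNN1 was at 0 and MYH11 at 0 to 1. The sum over 5 hormone-sensing luminal markers was 134 to 332 in the stiff IPN and 755 to 1521 in stiff col gels, nearly all of it AREG, with PGR at 0 to 1 and TFF1 at 0. The sum over 6 immune markers was 525 to 1643 in the stiff IPN, 2211 to 4571 in the soft IPN and 1105 to 5179 in the collagen gels, nearly all of it CD68 and CD14, with PTPRC at 0 and CD3E at 0 to 1. The sum over the 9 epithelial markers was 33913 to 42843 in the stiff IPN, 56640 to 59029 in the soft IPN, 49300 to 74697 in soft col:rBM gels and 33553 to 44117 in stiff col gels. ITGB4, the integrin of hemidesmosomes, and ITGA6 together made up most of this sum. In stiff IPN replicate 2, ITGA6 (11742) exceeded ITGB4. ITGB4 had 21849 and 9669 in the stiff IPN and 43446 and 36407 in the soft IPN. The junction genes of the same list went the other way: CDH1 (3972 and 5620 in the stiff IPN), CLDN1 (672 and 2761), CLDN4 (464 and 837), OCLN (273 and 529) and EPCAM (408 and 434) each had their 2 highest libraries there. The 9 fibroblast markers summed to 1114 to 1129 in the stiff IPN and 1003 to 1383 in the soft IPN, with COL1A2 and THY1 at 0. They summed to 830 to 1097 in soft col:rBM gels and 1390 to 1568 in stiff col gels. The 5 endothelial markers summed to 39 to 74 in the stiff IPN and 73 to 263 in the soft IPN, with CLDN5 at 0. In soft col:rBM and stiff col gels they summed to 44 to 270 and 55 to 172. The 4 adipocyte markers summed to 28 to 29 in the stiff IPN and 19 to 27 in the soft IPN. They were highest in soft col:rBM gels, at 55 to 123, and at 18 to 23 in stiff col gels. Their part in the keratin differences was not tested.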

How the data were processed

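RNA-seq was done on MCF10A cells from 4 hydrogels, 2 libraries per gel, numbered as replicates by the labels (independent trials, per the methods). The authors trimmed 50-base paired reads (Trim Galore 0.3.3), aligned them to hg19 (Bowtie2 in the methods, TopHat2 2.0.13 in the processing notes), removed unmapped, low-quality and multimapped reads (SAMtools 1.1) and counted reads per gene with HTSeq. The annotation and strand setting are not given in the sources used here, and the library kit does not mark strand. The deposited signal is 1 table of values read here as normalized counts. Judged by the gaps in them, they are reads per gene times 1 factor per library, rounded, which is why no count model was used.

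Values were taken as log2(normalized count + 1) for the 13369 genes of 25369 with at least 10 in at least 2 libraries, and fitted with limma 3.58.1 (trend and robust moderation, statmod 1.5.0, R 4.3.3) over all 8 libraries, with 1 mean per gel and Benjamini-Hochberg adjustment at 0.05. Fold changes are on this scale. The replicate number was added as a block because same-numbered libraries deviated together. The replicate difference of 2 gels correlated across genes at r of 0.28 to 0.82 over 6 pairs of gels, and the first principal component separated the replicates. The stiff IPN had the lowest r, at 0.28 with the soft IPN, 0.39 with soft col:rBM and 0.4 with stiff col gels, against 0.65 to 0.82 for pairs without it. The shared shift that the block assumes was thus weakest for the stiff IPN. The tests were run on simulated data for stiff IPN minus soft IPN, with 200 of 13369 genes changed. The fit without the block called 32.5% of the genes changed by 2 on the log2 scale and 0.5% of those changed by 1. The fit with it called 66.6% and 26.9%. Each simulated gene had the same replicate shift in all 4 gels, which is what the block assumes. The simulation therefore cannot show how the block performs where the shift differs between gels. Alternatives are given in the closing section. A share of a library rests on its reads on genes, and the spread between 2 libraries limits the precision more than their depth.

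The 10 keratins are named in every comparison. From each further list the called genes were counted, and at most 3 with the largest change and libraries that did not overlap were named. KRT10, KRT13, KRT19, KRT23, KRT34, KRT81, JUP, IVL in the comparison of the stiff gels and the markers named were chosen after their values were seen. The members and lists were chosen with earlier results of these data known. Gene positions and exon sequences are from the hg19 genome with GENCODE release 44, the 50-base stretches of canonical transcripts were searched on both strands of the whole genome, and transcripts were aligned with Biopython 1.88. Promoters were not used. A gene among those most like the keratins is not reported here.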

Additional observations from a re-analysis of the deposited data

Results flagged for a closer look

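The stiff minus soft difference of KRT6B was not the same in the 2 kinds of gel. In the direct test with the replicate block its log2 fold change in collagen gels was lower than that in IPNs by 3.48 (limma value -3.48, adjusted p 0.0106). The normalized counts were 51 and 307 in soft IPNs, 616 and 3456 in stiff IPNs, 60 and 318 in soft col:rBM gels and 52 and 391 in stiff col gels, so that the difference was in the same direction in both replicates. Without the block the adjusted p of the limma test was 1. With 2 libraries per gel, no library could be tested as an outlier of its gel.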

How the results depend on the processing

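With the replicate block, the count of keratins called changed from 0 to 2 for stiff against soft IPNs, from 0 to 4 for stiff col gels against stiff IPNs, from 0 to 1 for the difference of the stiffness effects and from 0 to 2 for any difference among the gels. It changed no other count. All alternatives that combine the block with another setting were chosen after seeing the data. With the block and 1 library left out, the count ranged from 0 to 5 for stiff against soft IPNs, from 2 to 7 for stiff col gels against stiff IPNs, from 0 to 2 for stiff col against soft col:rBM gels and from 0 to 4 for the difference of the stiffness effects (3 without stiff IPN replicate 2). Without trend and robust moderation it was 2 for stiff col gels against stiff IPNs (0.905% of all genes) and 0 for the difference (0%). For stiff against soft IPNs it was still 2 under that setting, while the share of all genes called fell from 3.82% to 0.262%. Fitting only the gels compared gave 4 for stiff col against soft col:rBM gels (7.47% of all genes) and 1 for the soft gels (0.326%). The cause was not tested. In the order of levels per length, 2 keratins changed rank with the longest transcript and 4 with the canonical transcript.

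Signs of small differences turned when 1 library was left out, in the fit without the block. For stiff minus soft IPN the log2 fold change ranged from -0.96 to 0.40 for KRT5, -0.59 to 1.4 for KRT14, -0.92 to 0.24 for KRT15, -0.75 to 0.11 for KRT8 and -0.47 to 0.71 for KRT6A. For stiff col minus stiff IPN it ranged from -0.46 to 0.40 for KRT8 and -0.41 to 0.05 for KRT18. For stiff col minus soft col:rBM it ranged from -1.55 to 0.16 for KRT5, -2.05 to 0.31 for KRT14, -0.65 to 1.45 for KRT17, -0.66 to 0.45 for KRT7, -0.62 to 0.28 for KRT8, -0.58 to 0.09 for KRT18, -0.99 to 0.08 for KRT6A and -1.4 to 1.49 for KRT6B. For soft col:rBM minus soft IPN it ranged from -1.03 to 0.14 for KRT5, -1.42 to 0.93 for KRT14, -0.93 to 0.53 for KRT15, -0.70 to 0.41 for KRT7, -0.63 to 0.27 for KRT8, -0.55 to 0.12 for KRT18, -0.49 to 0.37 for KRT6A, -1.14 to 1.42 for KRT6B and -0.92 to 0.01 for KRT16. For the difference of the stiffness effects it ranged from -1.27 to 0.44 for KRT5, -0.30 to 0.60 for KRT8, -0.30 to 0.37 for KRT18 and -1.16 to 0.02 for KRT6A. For replicate 2 minus replicate 1 it ranged from -0.58 to 0.01 for KRT8 and -0.29 to 0.40 for KRT16. Rescaling to a common total, which shifts every gene by 0.27 between stiff and soft IPNs, turned KRT6A to 0.04 between the soft gels, and KRT8 to -0.06 and KRT18 to -0.18 in the difference of the stiffness effects.

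In this fit KRT6B ranged from 2.25 to 4.81 and KRT17 from 0.94 to 2.82 between stiff and soft IPNs with 1 library left out, and neither changed sign under any alternative there. With 2 libraries per gel the spread between replicates limits every comparison.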
